A study of Prunus armeniaca and Prunus mume with 8 samples.

Results

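The ACC synthases are the probes whose description names 1-aminocyclopropane-1-carboxylate synthase, and 4 of the 10384 probes on the array met that rule. They are EU034653.1 (ACS4 of Prunus salicina, complete coding sequence), AF467782.1 (an ACC synthase of P. persica, partial), AF184077.1 (ACS2 of P. armeniaca, partial) and Z23118.1 (an ACC synthase of P. persica, partial). Descriptions exist only for the 658 probes in the authors' deposited lists of probes with at least 2-fold differences, so the measured differences between these samples chose the members. Their differences are therefore described with no test of their own, and counts from the fit across all probes stand beside them as background.

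ACC synthase turns S-adenosylmethionine into ACC, usually the slow step of ethylene synthesis, and ACC oxidase then turns ACC into the gas ethylene. Receptors such as ERS1 sense ethylene, EIN2 and the EIN3-like proteins (EIL) carry the signal to the nucleus, and ethylene response factors act on target genes. Apricot and its relatives are climacteric fruits, in which ethylene synthesis climbs as the fruit ripens and cell wall enzymes soften the flesh.

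Total RNA of fruit was hybridised to 8 one-colour Cy3 arrays of 1 slide. Prunus mume (Japanese apricot) was represented by the cultivars Ruantiaohongmei and Xiyeqing, and Prunus armeniaca (apricot) by Manao and Zhenkui. Each cultivar had 2 arrays, and no treatment is labelled. The labels give mixed stages for every array, drawn from stages 1 to 8 between 3 and 13 weeks after full bloom, without naming those pooled in each, and leave unsaid whether a cultivar's arrays stem from different trees. The p-values below thus rest on a spread that may be purely technical. In RNA of whole fruit, fewer cells of a type and less RNA per cell cannot be told apart.

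Levels are log2 of the processed signal minus the array's 75th percentile, so that 0 is the level of that percentile. Levels of different probes are not compared. Between 7806 probes (Ruantiaohongmei replicate 2) and 8982 probes (Xiyeqing replicate 2) were well above background per array, and arrays of a cultivar correlated at r = 0.969 to 0.992 across probes. Of the marker lists, all 10 expansin probes and all 3 photosynthesis probes were well above background on every array, neither being particular to fruit. Of 6 endopolygalacturonase probes, markers of ripe flesh, at most 1 was well above background on 6 of the 8 arrays. Oleosin and endopolygalacturonase probes set Ruantiaohongmei replicate 2 apart, and their values stand beside the results they touch.

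The ACC synthases had a high signal on 1 array. On Ruantiaohongmei replicate 2 each of the 4 probes reached its highest level of the 8 arrays, and on Xiyeqing replicate 2 each reached its second highest. On the other arrays the 4 probes stayed low, and 2 of them were often not well above background.

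ACS4 (EU034653.1) was well above background on 8 of 8 arrays. Its level was -4.62 on Ruantiaohongmei replicate 1 and 2.79 on replicate 2, and -3.33 and -1.86 on the Xiyeqing arrays. It was -3.61 and -3.01 on the Manao arrays, and -2.60 and -2.92 on the Zhenkui arrays. The Ruantiaohongmei arrays thus held both the highest and the lowest level of the 8, and the levels of the other 3 cultivars lay between them. In processed signal these 2 spots read 21.0 and 3698 units, with scanner software errors of 2.92 and 370.

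The P. persica probe AF467782.1 was also well above background on 8 of 8 arrays and repeated the pattern. Its level was -4.62 on Ruantiaohongmei replicate 1 and 2.61 on replicate 2, and -2.94 and -1.69 on the Xiyeqing arrays. It was -3.26 and -2.68 on the Manao arrays, and -2.09 and -2.70 on the Zhenkui arrays. Again Ruantiaohongmei held the highest and the lowest array, and the levels of Manao and Zhenkui overlapped.

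ACS2 of apricot itself (AF184077.1) was faint, well above background on 5 of 8 arrays. Its level was -1.59 on Ruantiaohongmei replicate 2, where the processed signal was 177 units, and -6.22 on replicate 1, where it was not well above background. It was -7.08 (not well above background) and -5.38 on the Xiyeqing arrays. It was -6.41 (not well above background) and -5.64 on the Manao arrays, and -5.84 and -5.39 on the Zhenkui arrays. Apart from Ruantiaohongmei replicate 2, the levels of all 4 cultivars lay close to the detection limit.

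The other P. persica probe (Z23118.1) was well above background on 4 of 8 arrays. Its level was -0.13 on Ruantiaohongmei replicate 2, with a processed signal of 489 units, and -6.53 on replicate 1, where it was not well above background. It was -5.55 and -4.38 on the Xiyeqing arrays, and -5.45 and -5.99 on the Zhenkui arrays, the latter not well above background. On the Manao arrays it was -7.49 and -6.62, neither of them well above background. Both Xiyeqing arrays were brighter than both Manao arrays.

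**Figure D1:**
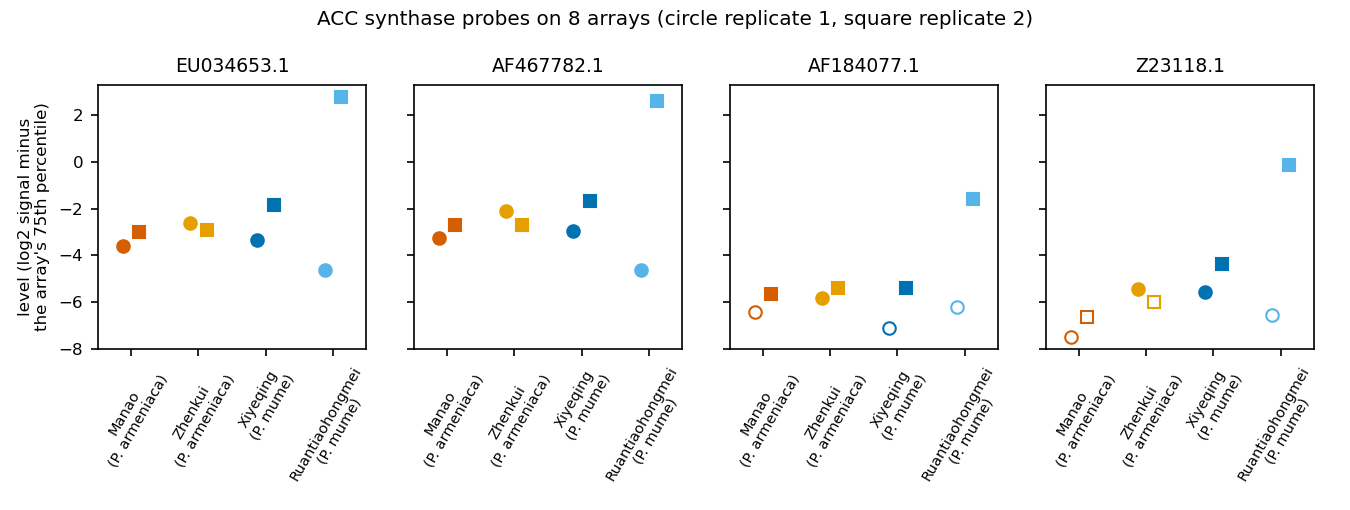
Level of each ACC synthase probe (log2 signal minus the array's 75th percentile) on the 8 arrays, by cultivar, with circles for replicate 1, squares for replicate 2 and open marks for spots not well above background. In each panel the square of Ruantiaohongmei stands highest, at 2.79, 2.61, -1.59 and -0.13 from left to right.

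Replicate 2 of Ruantiaohongmei exceeded replicate 1 by 7.41 on the log2 scale for EU034653.1 (170-fold) and by 7.23 for AF467782.1 (150-fold). For the 2 probes that were not well above background on replicate 1, the measured differences were 4.63 for AF184077.1 (at least 16.9-fold) and 6.40 for Z23118.1 (at least 46.5-fold). The bounds use the lowest level among probes well above background on that array. All 4 ACC synthases were at least 2-fold higher on replicate 2, as were 5.38% of the 9124 probes that passed the filter and had a value on both arrays. All 4 were also at least 16-fold higher, as were 0.296% of these probes (27 probes). Every list that held a member included this array, so the members were not chosen independently of it. These counts are description only. Probes that were not well above background on both arrays of any cultivar failed the filter, so these shares leave them out. With normexp background correction, an alternative added after seeing the data, all 4 differences were smaller. They were then 5.34 for EU034653.1, 5.18 for AF467782.1, 1.71 for AF184077.1 and 3.02 for Z23118.1, so that 2 of the 4 fell below 16-fold.

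Xiyeqing showed a smaller difference between its arrays in the same members. Replicate 2 exceeded replicate 1 by 1.47 for EU034653.1, 1.25 for AF467782.1 and 1.16 for Z23118.1 on the log2 scale. For AF184077.1 it was at least 1.61-fold higher, from a measured difference of 1.71. All 4 measured differences were at least 2-fold, as were 7.7% of 9125 probes. The differences between replicates were 0.57 to 0.87 in Manao and -0.61 to 0.44 in Zhenkui, so that 0 of 4 differed 2-fold in either. Of all probes, 2.63% differed 2-fold between the Manao arrays and 7.16% between the Zhenkui arrays.

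**Figure D2:**
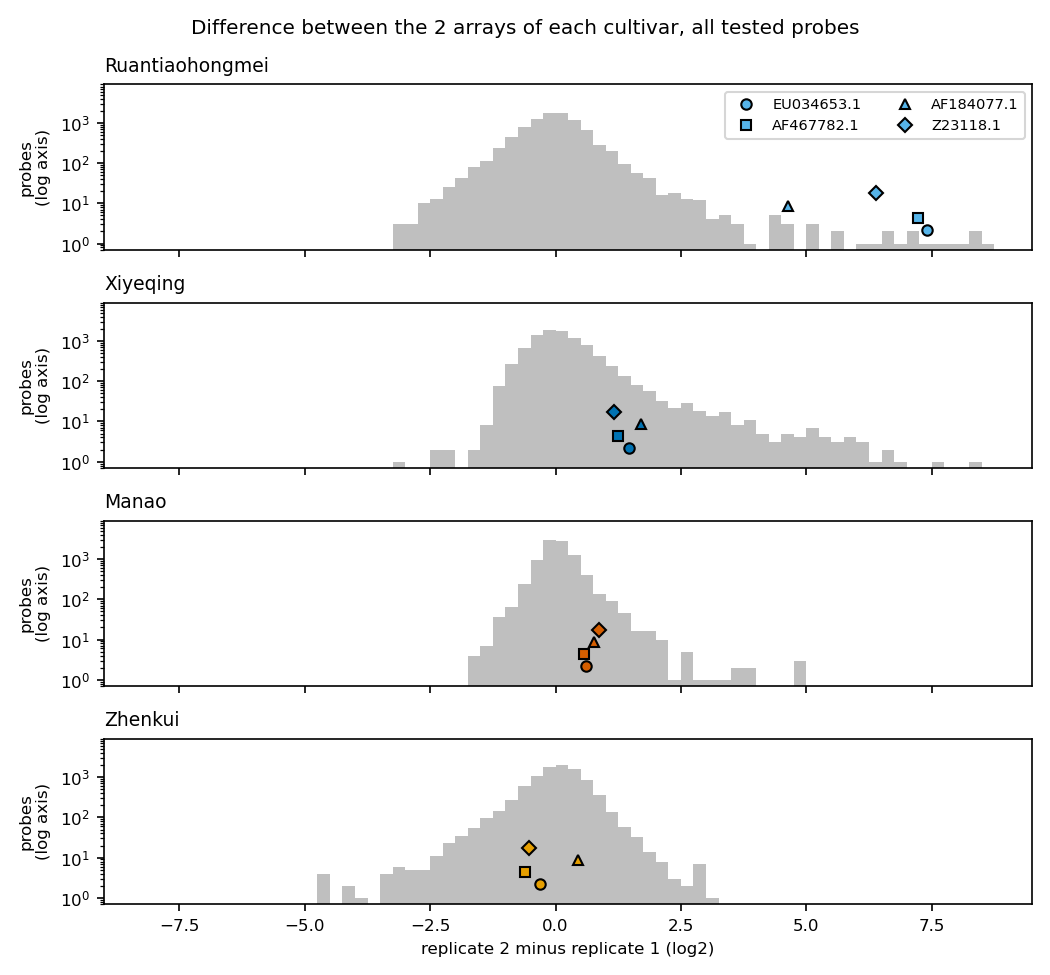
Number of probes (log axis) by the difference of replicate 2 minus replicate 1 (log2) in each cultivar, with the 4 ACC synthase probes as marks whose height has no meaning. In Ruantiaohongmei the marks lie at 4.63 to 7.41, in the sparse right tail, in Xiyeqing at 1.16 to 1.71, and in Manao and Zhenkui between -0.61 and 0.87.

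Each probe had 1 spot, at 4 separate places of the array, and none was saturated on any array. Over 50 to 90 neighbouring spots of each member, the median difference between the Ruantiaohongmei arrays was -0.05 to 0.06. Single neighbours ranged from -2.43 to 2.78, and a defect of a member's own spot was not tested.

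Cultivar means carried this spread with them. For EU034653.1 the order was Ruantiaohongmei at -0.91 ± 5.24 (SD, n = 2), Xiyeqing at -2.60 ± 1.04, Zhenkui at -2.76 ± 0.22 and Manao at -3.31 ± 0.42. The step from Ruantiaohongmei to Xiyeqing was smaller than the spread within Ruantiaohongmei, and Xiyeqing and Zhenkui overlapped. Only Zhenkui and Manao, the neighbours with the least spread, had arrays that did not overlap, and they differed by 0.54 (Manao minus Zhenkui -0.54).

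For AF467782.1 the means were -1.002 ± 5.11 in Ruantiaohongmei, -2.31 ± 0.88 in Xiyeqing, -2.40 ± 0.43 in Zhenkui and -2.97 ± 0.40 in Manao, and all neighbours overlapped. For AF184077.1 Ruantiaohongmei stood at -3.90 ± 3.27, Zhenkui at -5.62 ± 0.31, Manao at -6.02 ± 0.54 and Xiyeqing at -6.23 ± 1.21, again with overlap between neighbours. For Z23118.1 the order was Ruantiaohongmei at -3.33 ± 4.52, Xiyeqing at -4.97 ± 0.82, Zhenkui at -5.72 ± 0.38 and Manao at -7.06 ± 0.61. Here Manao, not well above background on either array, had the lowest measured levels, although Ruantiaohongmei replicate 1 and Zhenkui replicate 2 were not well above background either. Both Xiyeqing arrays were well above background, and Z23118.1 passed the filter only through this cultivar. The Xiyeqing mean lay at least 1.93-fold above Manao in this scaling, a difference that is described only. On the authors' deposited log2 values that difference was 1.74-fold.

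The title of the series asks about genes that differ between the 2 species. For EU034653.1 the P. mume arrays averaged -1.76 ± 3.23 and the P. armeniaca arrays -3.03 ± 0.42 (SD, n = 4 each), a difference of 1.28 on the log2 scale. The differences of P. mume minus P. armeniaca were 1.03 for AF467782.1, 0.75 for AF184077.1 and 2.24 for Z23118.1. The arrays of the species overlapped in every member (0 of 4 did not overlap, beside 39.9% of probes), and the SD within P. mume (2.42 to 3.23) was larger than the difference.

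In these differences 3 of 4 members were at least 2-fold higher in P. mume, as were 11.3% of 9125 tested probes. The limma fit across all probes called 36.6% of them (15.1% higher in P. mume and 21.5% lower) at an adjusted p under 0.05. It called 0 of 4 members, and 0 of 4 had an unadjusted p under 0.05 (1 of 4 without Ruantiaohongmei replicate 1). Because the same contrasts chose the members, nothing is read from these counts.

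Without Ruantiaohongmei replicate 2 the species difference was -0.24 for EU034653.1, -0.40 for AF467782.1 and -0.41 for AF184077.1. It was 0.90 for Z23118.1. The differences of EU034653.1 and AF467782.1, detected on every array, thus turned sign when 1 array was left out. Those of AF184077.1 and Z23118.1 include arrays not well above background.

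The contrasts with Ruantiaohongmei depended on which of its arrays was kept. The difference of Ruantiaohongmei minus Manao was 2.39 for EU034653.1 with all arrays and -1.31 without replicate 2. It was 1.97 and -1.65 for AF467782.1. Without replicate 1 instead, it was 6.10 for EU034653.1 and 5.58 for AF467782.1. The measured difference with all arrays was 2.12 for AF184077.1 and 3.73 for Z23118.1. Without replicate 2 these faint probes have no Ruantiaohongmei array well above background. All 4 members were at least 2-fold higher in Ruantiaohongmei than in Manao with all arrays, as were 10.5% of probes. The authors' list of this contrast held all 4, so nothing is read from this count.

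Between the P. mume cultivars, Ruantiaohongmei minus Xiyeqing was 1.69, 1.31, 2.33 and 1.64 for EU034653.1, AF467782.1, AF184077.1 and Z23118.1. All 4 were at least 2-fold higher in Ruantiaohongmei, as were 1.62% of probes. The authors' list of this contrast also held all 4, so nothing is read from this count. Without replicate 2 the differences were -2.02 for EU034653.1 and -2.31 for AF467782.1, and the remaining Ruantiaohongmei array lay below both Xiyeqing arrays. Without replicate 1 instead, they were 5.39 and 4.93. When replicate 2 was left out, the sign for these 2 probes turned in all 4 contrasts that contain it.

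Contrasts free of Ruantiaohongmei were small in most members. Xiyeqing minus Zhenkui lay between -0.61 and 0.76 over the 4 probes, with overlapping arrays in each and 0 of 4 at least 2-fold higher, against 13.3% of probes. Xiyeqing minus Manao was 0.71 for EU034653.1, 0.66 for AF467782.1 and -0.21 for AF184077.1, with overlapping arrays. For Z23118.1 the measured difference was 2.09 without overlap, but Manao was not well above background, and the bound of at least 1.93-fold given above applies.

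**Figure D3:**
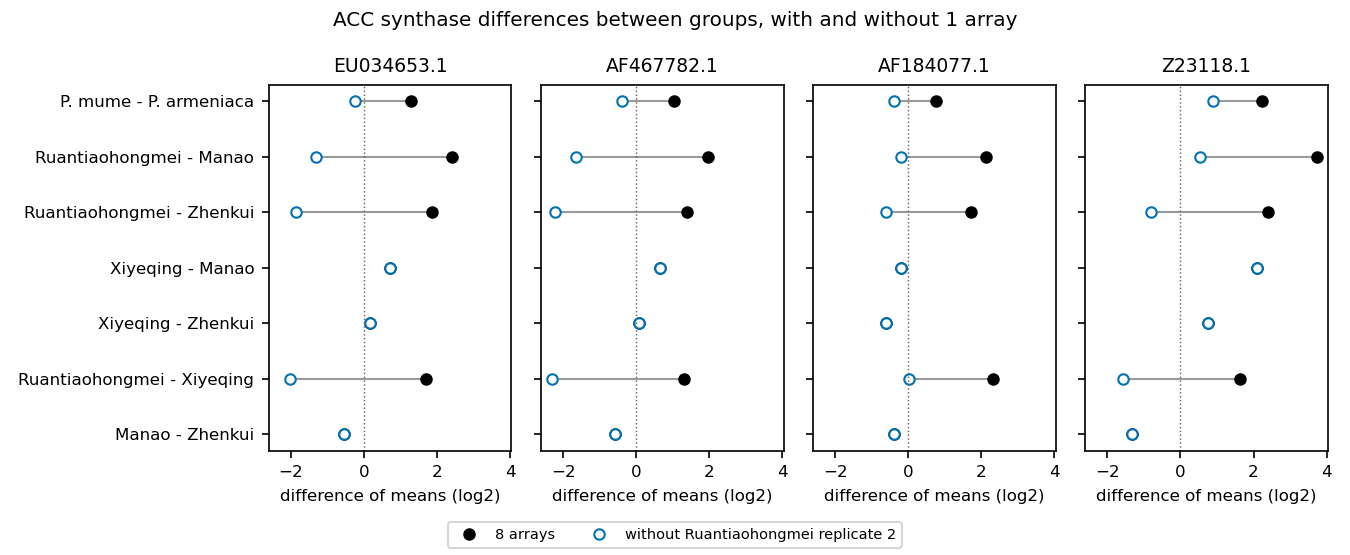
Difference of group means (log2) of each ACC synthase probe in 7 contrasts, with all 8 arrays (filled) and without Ruantiaohongmei replicate 2 (open). Contrasts with Ruantiaohongmei or P. mume move left when the array is left out, for EU034653.1 from 2.39 to -1.31 against Manao, and the others stay in place. Values of AF184077.1 and Z23118.1 include spots not well above background.

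The lists that chose the members rest on these same arrays, so their folds are no separate evidence. In the authors' deposited table of Manao against Ruantiaohongmei all 4 probes were listed, with folds of 3.61 to 6.07 towards Ruantiaohongmei. In the authors' deposited table of Ruantiaohongmei against Xiyeqing the 4 folds were 2.74 to 3.82, and in the authors' deposited table of Ruantiaohongmei against Zhenkui they were 2.85 to 4.45. The authors' deposited table of the species listed EU034653.1 (2.48-fold) and AF467782.1 (2.06-fold, the lowest fold among the members' entries). It marks both as up although its label names P. armeniaca first. On the authors' deposited log2 values both were higher in P. mume, by 1.31 and 1.04. None of the 3 lists without Ruantiaohongmei or the species contrast held a member.

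Just outside the 2-fold bound, AF184077.1 differed 1.68-fold between species and Z23118.1 differed 1.74-fold between Xiyeqing and Manao on the authors' deposited log2 values. Z23118.1 differed 2.79-fold between species on those values and was still not listed, so a further rule applied that neither labels nor headers state. On the same deposited values and without Ruantiaohongmei replicate 2, the difference of Ruantiaohongmei minus Manao went from 2.51 to -0.82 for EU034653.1 and from 2.02 to -1.26 for AF467782.1. For the faint probes it went from 1.85 to 0.27 (AF184077.1) and from 2.60 to 0.07 (Z23118.1), with the remaining array not well above background.

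Of the 4 probes, the 2 detected on every array tracked each other. EU034653.1 and AF467782.1 correlated at r = 0.996 over 8 arrays and at 0.986 over the 7 without Ruantiaohongmei replicate 2, and after centring their levels differed by at most 0.40 on any array. The other pairs correlated at 0.899 to 0.957 over 8 arrays and at 0.298 to 0.710 over 7. Each of them holds AF184077.1 or Z23118.1, which were well above background on only 5 and 4 of 8 arrays. Their lower values thus rest partly on signals near background and are not read as different behaviour of the genes. These values are a description over arrays of 4 cultivars that share 1 slide. Whether EU034653.1 and AF467782.1 detect the same transcript, and how mismatches between probe and fruit RNA affect each probe, was not tested. None of the 4 source sequences is from P. mume.

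The probes most like the members were found for EU034653.1 and AF467782.1, which passed the detection rule of 6 arrays, and the same 3 headed both. For EU034653.1 they were the endopolygalacturonase DQ340809.1, a pectin-cutting enzyme of softening flesh (r = 0.960 over 8 arrays, 0.722 over 7), ole1 of almond X78118.1, an oil-body protein of seeds (0.955 and 0.558), and the apricot lipoxygenase EU439430.1, an enzyme that oxidises fatty acids (0.950 and 0.881). For AF467782.1 the values were 0.940 and 0.800 for the lipoxygenase, 0.938 and 0.621 for the endopolygalacturonase, and 0.935 and 0.505 for ole1. Every one of them was highest on Ruantiaohongmei replicate 2, and each r was lower without that array.

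Endopolygalacturonase, the enzyme family of melting flesh, was high on Ruantiaohongmei replicate 2, and to a lesser degree on Xiyeqing replicate 2. All 6 of its probes were well above background on Ruantiaohongmei replicate 2, at levels of 1.00 to 5.72, and all 6 on Xiyeqing replicate 2, at -3.24 to 0.34. On each of the other 6 arrays at most 1 of the 6 was. The log2 of the summed level of the 6 probes was 7.46 on Ruantiaohongmei replicate 2 and 2.09 on Xiyeqing replicate 2, against -4.98 to -3.30 on the others. For 5 of the probes replicate 2 was at least 1031-fold to at least 2678-fold higher than replicate 1 in Ruantiaohongmei, and at least 31.0-fold to at least 84.5-fold in Xiyeqing. DQ340809.1, detected on 7 arrays, was 72.1-fold and 5.25-fold higher. The other 5 did not pass the filter, so the shares over all probes leave them out. The expansins, cell wall loosening proteins, did not all move together. At least 2-fold higher on replicate 2 were 3 of 10 in each of these cultivars, beside 5.38% of all probes in Ruantiaohongmei and 7.7% in Xiyeqing. These were the same 3 probes (AF038815.1, EU340362.1 and AF350936.1), with differences of 1.94 to 2.34 in Ruantiaohongmei and 3.29 to 3.62 in Xiyeqing. In Zhenkui the same 3 differed by -3.34 to -3.09, and in Manao by -1.02 to -0.90.

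Seed markers were high on Ruantiaohongmei replicate 2 only. The single oleosin probe (AY962832.1) had a level of 1.06 there, against -6.40 to -5.14 on the other 7 arrays, where it was not well above background on 3. Replicate 2 exceeded replicate 1 by 6.72 in Ruantiaohongmei and by 0.63 in Xiyeqing. Of 2 further seed probes chosen after their values were seen, ole1 (X78118.1) stood at 1.67 on that array and pru2, a seed storage globulin of almond (X78120.1), at 0.77. On the other arrays these stood at -5.93 to -4.04 and at -8.36 to -4.99. The 3 photosynthesis probes differed by -0.20 to 0.81 between the Ruantiaohongmei arrays. The part of the seed RNA, of the endopolygalacturonase signal and of the mixture of stages in the ACC synthase differences was not tested.

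The rest of the ethylene pathway was read from 16 further described probes, which the study's lists had likewise chosen on these samples. Neither their direction nor the calls and p-values given for them below are therefore independent evidence. Of these 16, limma called 8 higher and 1 lower in P. mume, and 7 did not pass. Over all 9125 tested probes the shares were 15.1% higher and 21.5% lower, but lists of 2-fold differences favour probes that differ. The median difference of the 16 was 1.08, beside -0.11 over all 9125 probes. The number called higher was 5 without Ruantiaohongmei replicate 2, 4 without Xiyeqing replicate 2, and 5 without either Zhenkui array.

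ACC oxidase, the step after ACC synthase, was called higher in P. mume for 4 of its 6 probes, beside 15.1% of all tested probes. The peach probe AF319166.1 and the apricot ethylene-forming-enzyme-like dioxygenase U97530.1 did not pass, with differences of 1.21 and 1.46. U97530.1 passed with slide row as a block (limma adjusted p = 0.015).

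The apricot ACC oxidase AF026793.1 stood at 6.76 and 7.91 in Ruantiaohongmei and at 4.86 and 7.00 in Xiyeqing, against 5.14 and 5.11 in Manao and 4.32 and 4.37 in Zhenkui. Its difference was 1.90 ± 0.58 (SE, limma adjusted p = 0.031), with 1 Xiyeqing array below both Manao arrays. The peach probe X77232.1 differed by 1.77 ± 0.50 (adjusted p = 0.022) and plum aco1 (AJ890086.1) by 1.94 ± 0.65 (adjusted p = 0.043). These calls did not all hold when an array was left out. AF026793.1 and AJ890086.1 lost theirs without either array of Ruantiaohongmei or of Zhenkui, or without Xiyeqing replicate 2, with adjusted p-values of 0.058 to 0.114. X77232.1 lost its call without Xiyeqing replicate 2 (adjusted p = 0.072).

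Unlike ACC synthase, ACC oxidase differed more between the Xiyeqing arrays than between the Ruantiaohongmei arrays in most probes, a difference that was not tested. Replicate 2 of Xiyeqing exceeded replicate 1 by 1.15 to 2.38, at least 2-fold in 6 of 6 probes. In Ruantiaohongmei the range was -0.22 to 1.99, with 4 of 6 at least 2-fold higher. The shares over all probes were 7.7% and 5.38%. In Manao and Zhenkui the ACC oxidases differed by -0.62 to 0.50 between arrays.

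The receptor and signal transduction probes differed by less than 2-fold between the arrays of every cultivar. The receptor ERS1 (AY061640.1) stood at 0.95 to 1.28 on the P. mume arrays and at 2.11 to 2.32 on the P. armeniaca arrays, with no overlap. It was lower in P. mume by a log2 difference of -1.10 ± 0.15 (limma adjusted p = 0.001). The transcription factor genes EIL1 (EF031065.1) and EIL2 (EF031066.1) were higher in P. mume by 1.11 ± 0.19 and 0.91 ± 0.19 (adjusted p = 0.002 and 0.006 in limma), also without overlap. Such separation of the species was found in 39.9% of all probes and in 6 of the 16 ethylene probes other than ACC synthases. The 3 probes for EIN2, the membrane protein between receptor and nucleus, differed by 0.49 to 0.61 and did not pass the test.

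Among the response factors ERF1b (FJ026008.1) was higher in P. mume by 2.23 ± 0.68 (limma adjusted p = 0.029), a call that was lost without Ruantiaohongmei replicate 2, either Xiyeqing or either Zhenkui array (adjusted p = 0.063 to 0.080). ERF2b (FJ026006.1) and ERF1a (FJ026009.1) differed by 1.05 and 0.12 and did not pass. ERF2b passed with slide column as a block (limma adjusted p = 0.021). Between the Ruantiaohongmei arrays the factors ERF2b and ERF1b were higher on replicate 2 by 2.29 and 1.96, the only probes of the pathway besides ACC synthases and ACC oxidases that differed at least 2-fold there. The single probe of the SAM supply pattern encodes a decarboxylase that draws SAM into polyamine synthesis (EF640666.1), and it was higher in P. mume by 0.88 ± 0.20 (adjusted p = 0.008 in limma).

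**Figure D4:**
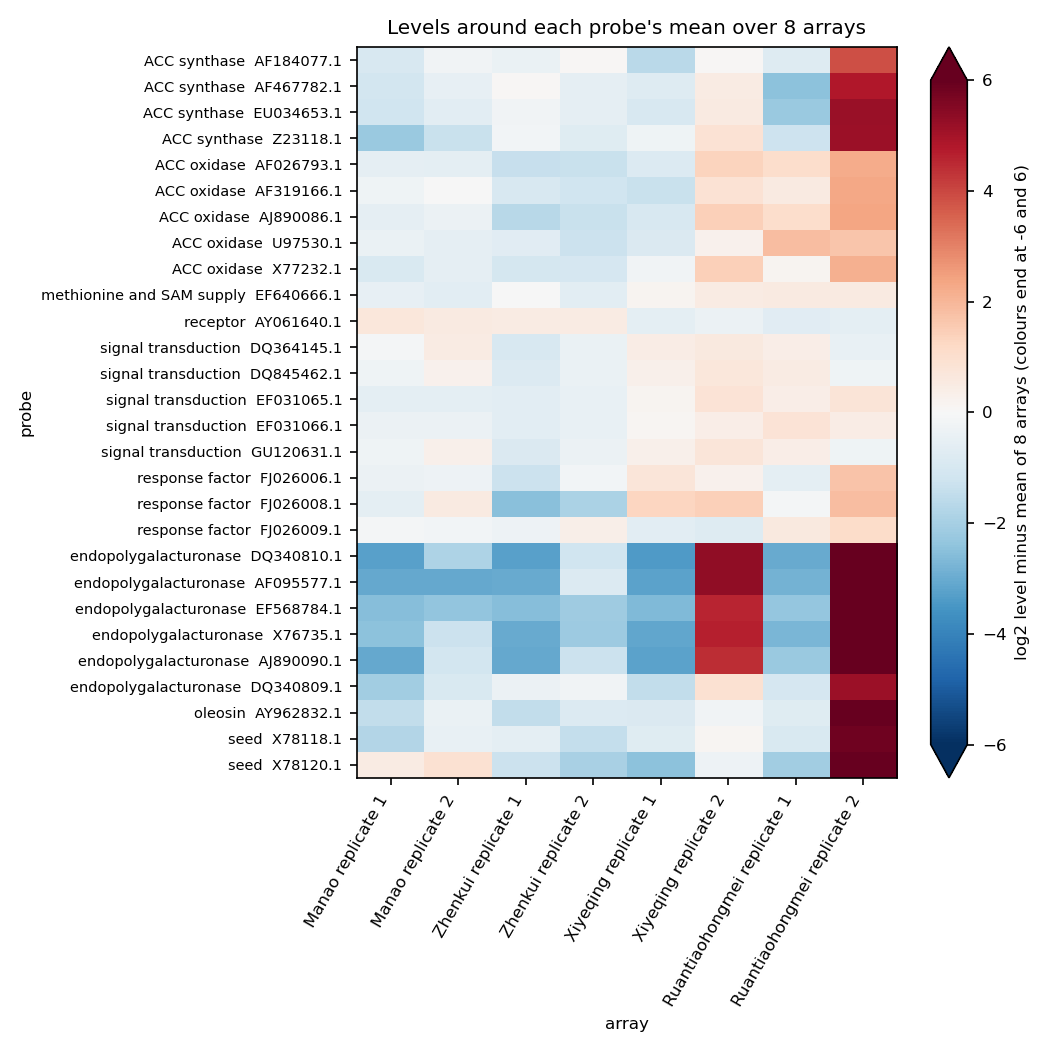
Levels of ethylene pathway, endopolygalacturonase and seed probes, each minus its own mean over the 8 arrays (log2, colours end at -6 and 6), with arrays as columns. The 4 ACC synthases, 6 endopolygalacturonases and 3 seed probes share a dark right column, Ruantiaohongmei replicate 2, and the endopolygalacturonases are also high on Xiyeqing replicate 2.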

How the data were processed

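The scanner files hold intensity values (processed signals) that Agilent Feature Extraction had background-subtracted, version 10.7.1.1 per the file headers and 8.1 per the submitters' processing notes. A log2 table (normalization not given in the sources used here) and lists with a ratio (fold) per probe were deposited too. The log2 processed signal minus each array's 75th percentile over non-control spots was used, with outlier-marked spots left out and spots of a probe averaged. The filter kept 9125 of 10384 probes, those well above background on the 2 arrays of any cultivar. They entered limma 3.58.1 (R 4.3.3), in which cultivar was the random block (estimated correlation 0.081), and calls had a p under 0.05 after Benjamini-Hochberg adjustment. All 4 ACC synthases passed this filter, AF184077.1 only through Zhenkui and Z23118.1 only through Xiyeqing. The method was tested on simulated data. Manao and Ruantiaohongmei shared slide row 1 and the others row 2, so row effects and cultivar pairs cannot be told apart.

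The members and gene lists were chosen with earlier results of these data known. Named were every ACC synthase, the brightest probe of each other ethylene sequence (1 result is not reported here), and the 3 protein-naming probes of highest r with each member detected on 6 arrays. The normexp alternative (offset 50) used the median spot signal, since the files hold no mean signal. Alternatives were other normalizations, filters, blocks and leaving out each array.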

Additional observations from a re-analysis of the deposited data

Results flagged for a closer look

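The response factor ERF1a (FJ026009.1) moved in opposite directions on the slide rows. In row 1 both Ruantiaohongmei arrays (0.91 and 1.45) lay above both Manao arrays (0.23 and 0.16), and in row 2 both Xiyeqing arrays (-0.31 and -0.46) lay below both Zhenkui arrays (0.03 and 0.68). The species difference in row 1 minus that in row 2 was 1.72, and limma's interaction term gave it an adjusted p of 0.34, so the difference between rows did not pass.

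For ERF2b (FJ026006.1), 1 of the 4 P. armeniaca arrays lay far from the others: Zhenkui replicate 1 stood at 2.55 and the other 3 arrays at 3.49 to 3.64. Its gap to the nearest array was 0.859 of the range of the group, and chance sets apart about 1 in 20 such groups, of which 40 were examined.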

How the results depend on the processing

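Over the other normalizations, filters, blocks and variance options, limma called 2525 to 3801 probes between species and 0 ACC synthases, 7 to 9 of the 16 other ethylene probes higher and 1 lower, and their median difference was 1.00 to 1.19. Ruantiaohongmei against Xiyeqing had 51 called probes, 27 with normexp and 9 when all 8 arrays had to be well above background. With either the median as centre or normexp, the median of all probes moved from -0.11 to -0.19 and 0.05, and the share of calls higher in P. mume from 41.2% to 35.4% and 46.3%. Leaving out each array in turn gave 2563 to 4181 species calls, 0 ACC synthases, an ethylene median of 0.82 to 1.39, 4 to 11 other ethylene probes higher and 1 lower. The cultivar counts were then 535 to 2090 for Ruantiaohongmei against Manao (1953 with all arrays, 535 and 643 without Manao replicate 1 and 2), 1313 to 2717 for Xiyeqing against Zhenkui (2577 with all arrays, 1313 to 1652 without an array of Manao or Zhenkui or Xiyeqing replicate 2) and 23 to 45 for Ruantiaohongmei against Xiyeqing. Manao against Zhenkui had 0 calls in limma throughout, with 1040 probes at an unadjusted p under 0.05. ERF1a (FJ026009.1) ranged from -0.18 (reversed, without Ruantiaohongmei replicate 2) to 0.36 without 1 array, and the causes were not tested. The plum aco1 call was lost (adjusted p = 0.051 to 0.061) with no filter, with slide column as a block and with trend and robust options. With the replicate number as a block, 3561 probes were called between species and no call of a named ethylene probe changed. The differences of same-numbered arrays correlated at -0.18 to 0.39, not all over 0.1, so the numbers were not taken to pair the arrays. The 3 probes most like each member kept 2 or 3 of 3 with Spearman's rho or the deposited values. Signals near background limit AF184077.1 and Z23118.1, and 2 arrays per cultivar limit every value.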

Other observations

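Of the 27 tested probes whose measured level was at least 16-fold higher on Ruantiaohongmei replicate 2 than on replicate 1, 23 are not ACC synthases, and 9 of these name a protein. For 5 of the 27, replicate 1 was not well above background and the bound was under 16-fold. These were chosen after their values were seen. A class IV chitinase (EF640689.1), of a family that cuts the chitin of fungal walls, stood at 5.25 on replicate 2 and -2.85 on replicate 1, a 274-fold difference, and at 1.91 and -3.30 on replicates 2 and 1 of Xiyeqing. The lipoxygenases EU439430.1 and EF568783.1 had bounds of at least 194-fold and 123-fold, respectively, for replicate 2 over replicate 1 of Ruantiaohongmei. They stood at -1.55 and -2.24 on replicate 2 of Xiyeqing, and at -6.18 and -7.37 on replicate 1. The seed probes pru2, ole1 and oleosin and the endopolygalacturonase DQ340809.1 are among the 9.

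The remaining 2 were not higher on replicate 2 of Xiyeqing. The homeobox factor KNOPE1 (DQ358050.1) was at least 15.4-fold higher on replicate 2 of Ruantiaohongmei and stood at -2.76 and -2.84 on the Xiyeqing arrays. The phosphofructokinase probe U93272.1 stood at 0.38 and 4.66 in Ruantiaohongmei and at 3.22 and 2.60 in Xiyeqing. Of the 27 probes, 17 were also at least 2-fold higher on replicate 2 of Xiyeqing, beside 7.7% of all tested probes. The 17 include the 4 ACC synthases and pru2, which was not well above background on either Xiyeqing array.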
